A study of Citrus sinensis with 6 samples.

Results

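Fatty acid synthesis genes of sweet orange (*Citrus sinensis*) were followed in leaves under salt stress. They were taken as the genes that the deposited annotation places in the KEGG pathways of fatty acid biosynthesis or biosynthesis of unsaturated fatty acids, leaving out those also placed in fatty acid elongation or in alpha-linolenic or linoleic acid metabolism. This gave 66 of the 29875 genes listed: 64 carried the first pathway, 10 carried the second, and 8 carried both. RNA-seq was done on leaves of tissue-cultured seedlings, with 3 NaCl libraries (2% NaCl, 14 days) and 3 control libraries (no added NaCl, 14 days). For the controls, the sample titles name sterile water, while the study's methods name standard Murashige and Skoog medium with no salt added. No cultivar, transgene or mutation separates the groups in the labels. Each library is described by the study's methods as a biological replicate of 4 seedlings, so its values are averages over pooled plants. The sample titles call the control tissue leaf blade and the NaCl tissue leaf, and an effect of that difference cannot be told apart from that of NaCl.

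In plants, fatty acids are built mainly in the plastid. Acetyl-CoA carboxylase, a biotin enzyme, makes malonyl-CoA, and a cycle of condensation, reduction, dehydration and a further reduction lengthens the acyl chain while it is held on an acyl carrier protein. Thioesterases release the finished chain, acyl-CoA ligases activate it for use in other compartments, and desaturases put in double bonds before or after export, which sets how fluid the membranes are.

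The annotation pairs each identifier with pathway and gene ontology terms but with no gene name. A function term was used for 29 of the 66 genes. The other 37 are described by pathway only, among them 2 whose function term was not used here. Genes named here with no function term, and the less abundant genes with one, were picked after their values had been seen. Values are FPKM, fragment counts scaled to transcript length and library size. Whole reads recovered from them summed to 17232005 to 19434813 reads in NaCl libraries and 14258460 to 17477063 in control libraries. The 66 genes together held 51039, 54545 and 51263 reads in NaCl libraries 1, 2 and 3, against 38761, 55073 and 32027 in control libraries 1, 2 and 3. As a check of the tissue, 46 to 47 of 67 genes of photosynthesis and its antenna proteins reached 10 FPKM in each NaCl library, against 40 to 44 in each control library. Their summed FPKM was 10124, 7443 and 11285 in NaCl, against 9627, 4889 and 6073 in control. As a share of all FPKM this ran from 0.92% in control replicate 2 to 2.16% in NaCl replicate 3. Leaf genes were thus expressed in all 6 libraries, with the lowest sum in control replicate 2. In bulk leaf RNA, fewer cells of a type and less RNA per cell cannot be told apart.

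One control library lay away from its group on the first principal component of all tested genes, which held 53.7% of the variance. There the NaCl libraries lay between 25.6 and 51.7, control replicates 1 and 3 at -51.5 and -66.3, and control replicate 2 at -9.50, between the groups. On the second component (20.4%), control replicate 2 lay at 14.2, while NaCl replicates 1 and 2 lay farthest apart, at 41.9 and -51.1. Control replicate 2 was the highest of the 3 controls in 28 of the 40 fatty acid synthesis genes that could be tested, where the share over all tested genes was 55%. The main counts are therefore given with and without it, and single-gene values without it mainly for the genes called only then.

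Among the 66 genes, 40 passed the filter on low values (0.5 FPKM or more in 3 or more libraries), 10 were listed at 0 in every library and 16 were above 0 but too low to test. Of these 16, 12 stayed under 0.5 FPKM everywhere. For a transcript of 1 kb, 3 reads would stand for 0.154 to 0.173 FPKM in NaCl and 0.171 to 0.209 FPKM in control libraries, so a gene at 0 was not detectable at this depth rather than shown to be off. Levels among the expressed genes ran over a wide range. The highest by mean over the 6 libraries was a long-chain acyl-CoA ligase, Cs_ont_5g049450, at 136.5 FPKM. Next by this mean were the omega-6 fatty acid desaturase Cs_ont_6g010860 at 104.3 FPKM and another ligase, Cs_ont_9g005200, at 72.1 FPKM. The place of the desaturase depended on the libraries: it averaged 98.5 FPKM in NaCl, above Cs_ont_5g049450 at 91.8 FPKM, but had only 23.0 and 39.2 FPKM in control replicates 1 and 3, below Cs_ont_9g005200, and 268.1 FPKM in control replicate 2. In all, 24 genes averaged 10 FPKM or more.

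**Figure D1:**
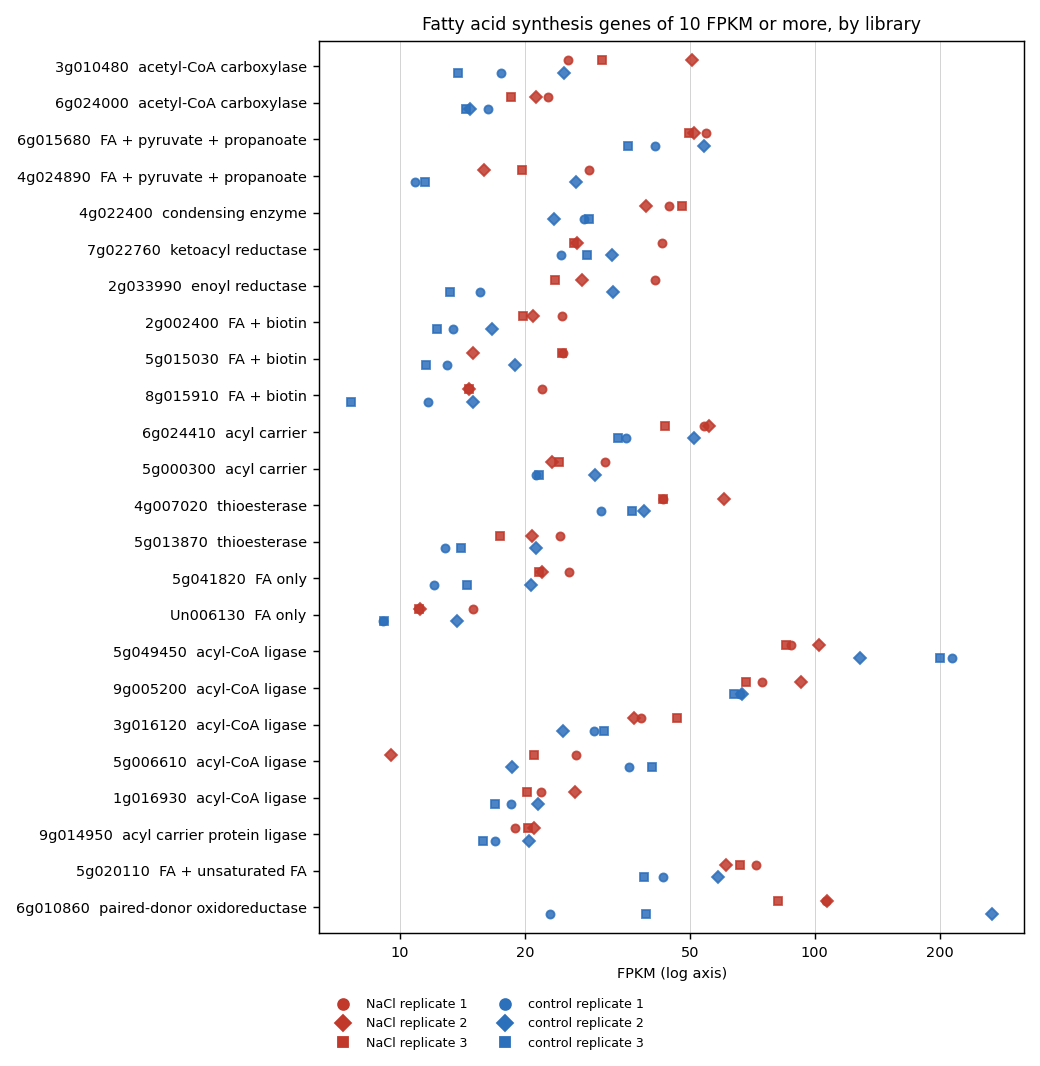
FPKM (log axis) of the 24 fatty acid synthesis genes that averaged 10 FPKM or more, with NaCl libraries in red above control libraries in blue and the replicate number as the marker shape (identifiers without their Cs_ont_ prefix, FA for fatty acid biosynthesis). Points of the 2 groups lie close for most genes, all red points lie right of the blue ones for 9 genes, 4g022400, 3g010480 and 5g020110 among them, and left of them for 5g049450, where NaCl libraries had 85.2 to 102.5 FPKM and controls 128.8 to 214.2 FPKM. Over all tested genes of that level, NaCl libraries lay wholly above the controls in 27.1% and wholly below in 14.8%.

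The question put to these genes was whether their transcript levels differed between salt-stressed and control leaves. None of the 40 passed the test in either direction. The test was limma on log2(FPKM + 1) over all 17285 tested genes, and a call needed both an adjusted p no higher than 0.05 and a log2 fold change of 1 or more in size. Called genes made up 0.978% of all tested genes as higher in NaCl and 1.75% as lower, so 0 of 40 was close to the background. The lowest adjusted p of the 40, from limma, was 0.0525. At the adjusted p alone, 0 were higher and 0 lower, beside 1.31% and 1.93% of all genes. With an unadjusted p of at most 0.05 and no fold change limit, 8 were higher and 4 lower, which compares with 19.1% and 11.2% of all genes. Adding the fold change limit left 0 higher and 2 lower, beside 3.54% and 5.1%. On recovered reads, limma with voom weights also called 0 in either direction.

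Direction leaned the way it did across the transcriptome. The log2 fold change of NaCl over control was positive in 28 of 40 genes and negative in 12, and 64.7% of all tested genes were positive. Its median was 0.32, against 0.18 for all tested genes, with a range of -1.37 to 0.96, and 24 of the 40 lay above the all-gene median, as 50% of all tested genes do. NaCl libraries lay wholly above the controls in 10 genes and wholly below in 4, beside 23.6% and 12.4% of all genes. Without control replicate 2 these counts were 24 and 7, beside 42.7% and 17.5%. No list test was run, and these counts do not set the pathway apart from other genes.

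Level and direction went together within the set. Of the 24 genes at 10 FPKM or more, 22 had a positive log2 fold change and 2 a negative one, with a median of 0.44. All genes of that level had 5869 positive and 2973 negative values, with a median of 0.21. The 16 tested genes under 10 FPKM had 6 positive and 10 negative values, with a median of -0.16. No background of their own level was counted for these lower genes. Over all tested genes of any level, 64.7% of values were positive, with a median of 0.18. Without control replicate 2, the lower group came to 8 positive and 8 negative, with a median of 0.02, while the higher group stayed at 22 positive and 2 negative, with a median of 0.54. Under the other scalings of the libraries, the higher group kept 20 to 21 positive values of 24 and the lower group 5 to 6 of 16.

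**Figure D2:**
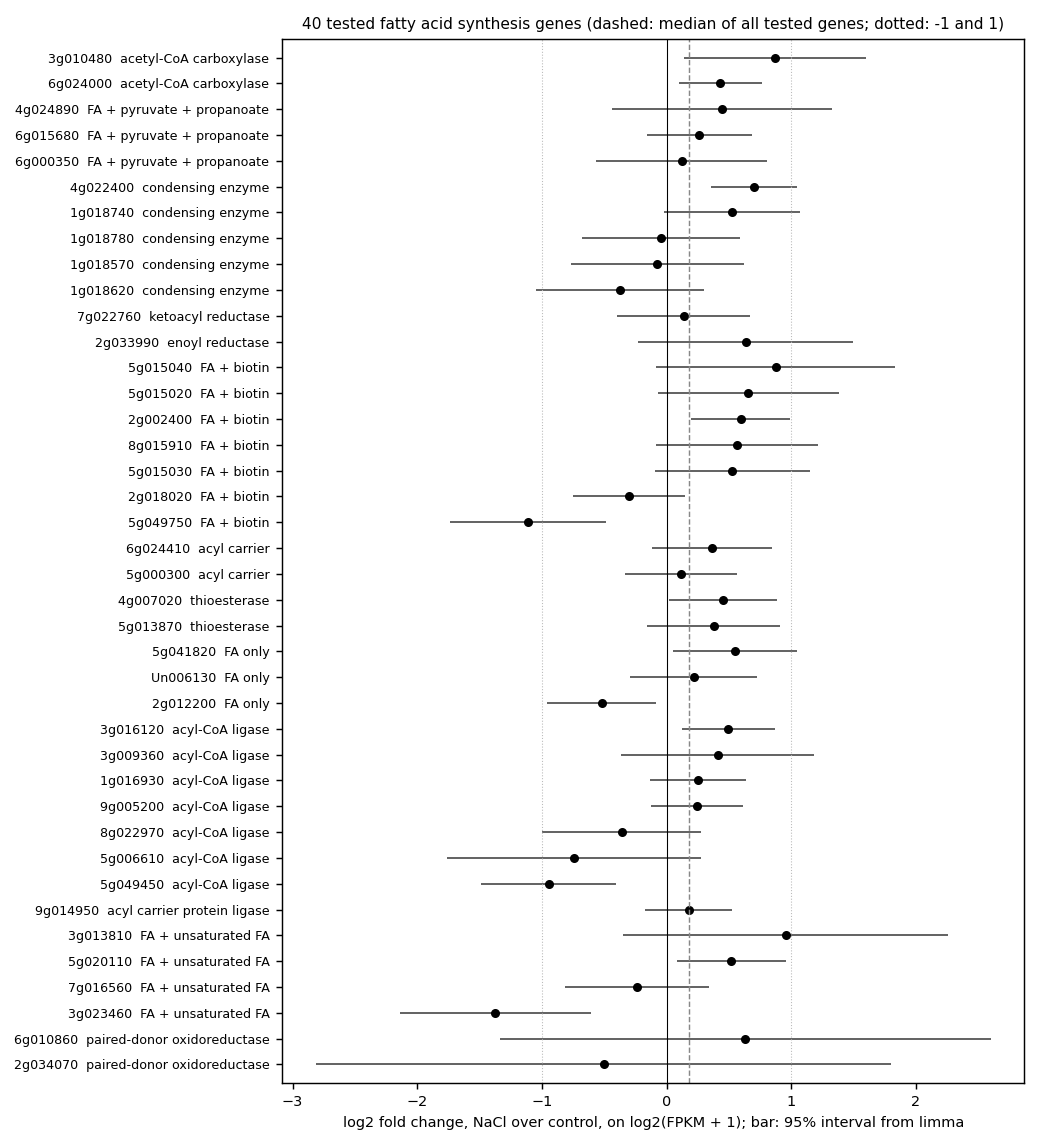
Log2 fold change of NaCl over control on log2(FPKM + 1) for the 40 tested genes, ordered by role, with 95% intervals from limma as bars, a dashed line at the median of all tested genes (0.18) and dotted lines at -1 and 1. Most intervals cross 0, and those of the low or variable genes 2g034070 (-2.81 to 1.80) and 6g010860 (-1.34 to 2.60) are the widest.

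Acetyl-CoA carboxylase, the entry step that makes malonyl-CoA, was represented by 2 genes with that function term. In both, the NaCl libraries lay wholly above the controls, as they did in 23.6% of all tested genes. Cs_ont_3g010480, which had no chloroplast component term, had 25.4, 50.5 and 30.8 FPKM in NaCl leaves, against 17.5, 24.9 and 13.8 FPKM in control leaves. Its log2 fold change was 0.87 (SE 0.31, 95% interval 0.14 to 1.60), with an adjusted p of 0.122 from limma. Replicate 2 was the highest library in both groups for this gene. Cs_ont_6g024000, whose component term places it in the chloroplast, had 22.7, 21.3 and 18.5 FPKM in NaCl, against 16.3, 14.7 and 14.5 FPKM in control. Here the libraries within a group lay closer together, and the log2 fold change was 0.43 (SE 0.14, adjusted p = 0.106 by limma). Summed over both genes, NaCl leaves held 56.4 ± 13.3 FPKM and control leaves 33.9 ± 5.68 FPKM (SD, n = 3 each).

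A further 12 genes shared the pathway set of these carboxylases (fatty acid biosynthesis with pyruvate and propanoate metabolism) but had no function term. Of these, 6 were listed at 0 throughout, 3 had too few reads to test and 3 were tested. Cs_ont_6g015680 had 54.6, 51.1 and 49.9 FPKM in NaCl, against 41.2, 54.2 and 35.5 FPKM in control, and the groups overlapped only through control replicate 2. Its log2 fold change was 0.26 (adjusted p = 0.338 by limma). Cs_ont_4g024890 showed the same overlap more widely, with 28.6, 16.0 and 19.6 FPKM in NaCl, against 10.9, 26.6 and 11.5 FPKM in control (log2 fold change 0.45, SE 0.37). The third, Cs_ont_6g000350, was near 5 FPKM in both groups, at 5.26 ± 1.67 FPKM in NaCl and 4.79 ± 1.78 FPKM in control (SD, n = 3 each). All 5 tested genes of this pathway set had positive log2 fold changes, median 0.43, except that Cs_ont_6g000350 turned negative under quantile normalization (-0.052) and on recovered reads (-0.026).

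Condensing enzymes (3-oxoacyl-acyl carrier protein synthases), which add each new carbon pair to the chain, gave the lowest adjusted p of the whole set. Cs_ont_4g022400 had 44.4, 39.3 and 47.9 FPKM in NaCl leaves, against 27.8, 23.5 and 28.6 FPKM in control leaves. Every NaCl library was above every control library by more than the spread within either group, with means of 43.9 ± 4.34 and 26.6 ± 2.76 FPKM (SD, n = 3 each). The log2 fold change was 0.70 (SE 0.14, 95% interval 0.36 to 1.05) with an adjusted p of 0.0525 from limma, and it ran from 0.62 to 0.78 when each library was left out in turn. This gene carried 88.7, 91.7 and 89.6% of the FPKM of the 7 annotated condensing enzymes in NaCl, against 84.6, 81.9 and 88.0% in control.

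The other 6 condensing enzymes were low, and their identifiers run closely together (Cs_ont_1g018570 to Cs_ont_1g018780). Whether reads were split between near-identical copies was not tested, so the value of any one of them is uncertain. Cs_ont_1g018740 had 1.27, 1.14 and 2.08 FPKM in NaCl, against 0.769, 0.453 and 0.943 FPKM in control, with no overlap between the groups (log2 fold change 0.53, adjusted p = 0.175 by limma). Log2 fold changes of the remaining tested copies were -0.37 for Cs_ont_1g018620, -0.07 for Cs_ont_1g018570 and -0.04 for Cs_ont_1g018780. Cs_ont_1g018720 had 0.817 FPKM in NaCl replicate 2, from 18 reads, against 1 read over the other 5 libraries.

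For the reduction steps, the only ketoacyl reductase with a function term, Cs_ont_7g022760, had 42.8, 26.7 and 26.3 FPKM in NaCl, against 24.5, 32.5 and 28.2 FPKM in control. Its groups overlapped, the log2 fold change was 0.14 (95% interval -0.40 to 0.67), and the sign turned without NaCl replicate 1 (-0.087) and on recovered reads (-0.028). Enoyl-acyl carrier protein reductase, which closes each turn of the cycle, was carried almost wholly by Cs_ont_2g033990. It had 41.2, 27.4 and 23.6 FPKM in NaCl, against 15.6, 32.6 and 13.2 FPKM in control, where the overlap came from control replicate 2 alone. With all libraries the log2 fold change was 0.63 (SE 0.36, adjusted p = 0.270 by limma). Without control replicate 2 it was 1.01 with an adjusted p of 0.0439. Both other genes with that term, Cs_ont_6g010950 and Cs_ont_6g011000, stayed under 0.5 FPKM.

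Fatty acid biosynthesis together with biotin metabolism, the pathway pair that holds these cycle enzymes, covered 24 genes, of which 14 were tested. Positive log2 fold changes numbered 9 and negative ones 5, with a median of 0.53, and on recovered reads the numbers were 8 and 6. Among those with no function term, Cs_ont_2g002400 had 24.5, 20.9 and 19.8 FPKM in NaCl, against 13.4, 16.7 and 12.3 FPKM in control. Its libraries did not overlap, with a log2 fold change of 0.59 (SE 0.17, adjusted p = 0.0838 by limma). A run of 3 neighbouring identifiers, Cs_ont_5g015020 to Cs_ont_5g015040, had log2 fold changes of 0.65, 0.53 and 0.87 with overlapping libraries, and Cs_ont_8g015910 had 0.56. In the opposite direction, Cs_ont_5g049750 had 1.14, 0.326 and 0.272 FPKM in NaCl, against 2.86, 2.14 and 2.02 FPKM in control. That gene was low in every library and lower in all NaCl libraries, with a log2 fold change of -1.11 (SE 0.26, adjusted p = 0.0633 by limma). Cs_ont_2g018020, annotated to thylakoid membrane organization, had 4.24 ± 0.227 FPKM in NaCl and 5.51 ± 1.13 FPKM in control (SD, n = 3 each, log2 fold change -0.30).

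**Figure D3:**
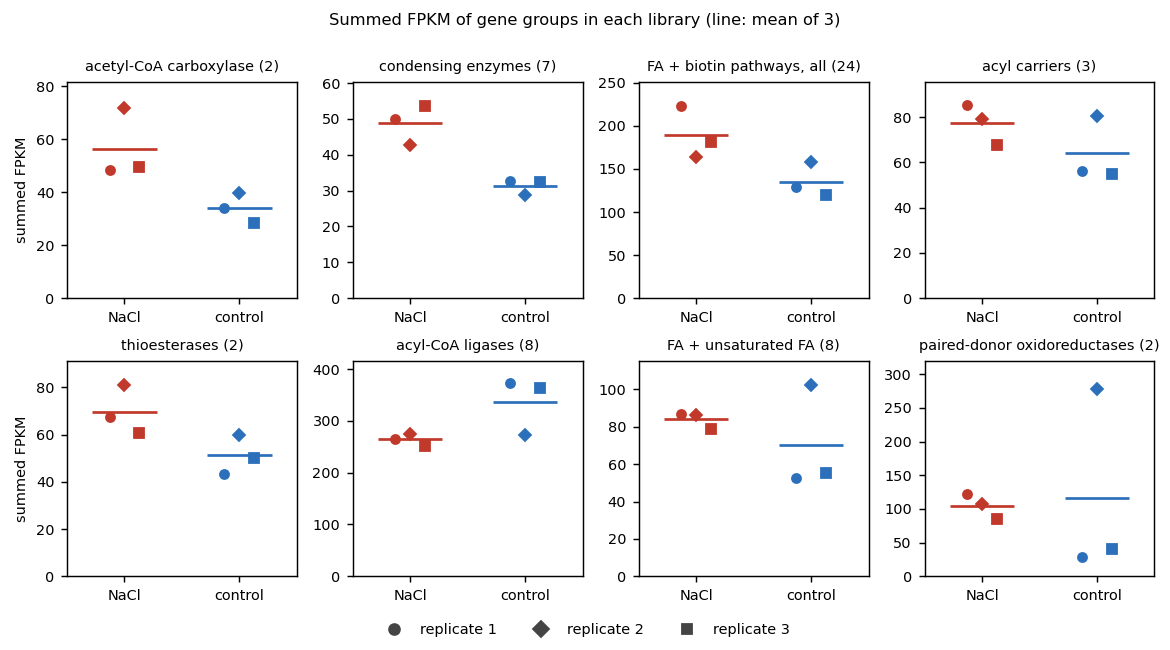
Summed FPKM of 8 gene groups in each library (number of genes in brackets), with NaCl left of control, marker shape for the replicate and a line at the mean of 3; the group of 24 contains the 7 condensing enzymes. Condensing enzymes held 42.8 to 53.5 FPKM in NaCl and 28.6 to 32.8 FPKM in control, while for the paired-donor oxidoreductases (the desaturase 6g010860 and the monooxygenase 2g034070) control replicate 2 alone, at 279 FPKM, lies above the rest.

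Acyl carriers hold the growing chain on a phosphopantetheine arm. All 3 carrier genes shared fatty acid biosynthesis with oxidative phosphorylation, and both tested ones had mitochondrial component terms. Cs_ont_6g024410 had 54.1, 55.7 and 43.6 FPKM in NaCl, against 35.1, 51.1 and 33.5 FPKM in control (log2 fold change 0.37, adjusted p = 0.257 by limma). Cs_ont_5g000300 had 26.2 ± 4.36 FPKM in NaCl and 24.2 ± 4.67 FPKM in control (SD, n = 3 each). Its log2 fold change of 0.12 turned to -0.016 under quantile normalization, to -0.051 on recovered reads and just below 0 under upper-quartile scaling. The third carrier, Cs_ont_2g000450, was read 7 and 6 times in NaCl replicates 2 and 3 and in no other library.

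Thioesterases free the finished chain from its carrier and so end synthesis. Cs_ont_4g007020 had 43.1, 60.5 and 43.2 FPKM in NaCl leaves, against 30.6, 38.7 and 36.2 FPKM in control leaves. The groups did not overlap, and NaCl replicate 2 lay well above its group. The log2 fold change was 0.45 (SE 0.18, adjusted p = 0.154 by limma). Cs_ont_5g013870, an acyl-acyl carrier protein hydrolase by its term, had 24.3, 20.8 and 17.4 FPKM in NaCl, against 12.8, 21.3 and 14.0 FPKM in control, overlapping through control replicate 2 (log2 fold change 0.38). Apart from these 2, fatty acid biosynthesis alone was given to 4 genes with no function term. In the chloroplast gene Cs_ont_5g041820, NaCl libraries had 25.6, 22.0 and 21.6 FPKM, against 12.1, 20.7 and 14.5 FPKM in control (log2 fold change 0.55, adjusted p = 0.140 by limma). Cs_ont_2g012200, also placed in the chloroplast, had 1.72, 1.95 and 1.26 FPKM in NaCl, against 2.67, 2.74 and 2.90 FPKM in control, all NaCl libraries being lower (log2 fold change -0.52, adjusted p = 0.123 by limma).

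Acyl-CoA ligases, which activate free fatty acids by joining them to coenzyme A, did not share one direction. Of 8 genes with a ligase term 7 were tested, 4 with positive and 3 with negative log2 fold changes, and Cs_ont_2g016520 was listed at 0 in every library. Among the positive ones was malonyl-CoA synthetase Cs_ont_1g016930, which by its term acts on malonate, and the ligase sums and shares include it. Cs_ont_5g049450, placed in the endoplasmic reticulum, had 87.7, 102.5 and 85.2 FPKM in NaCl leaves, against 214.2, 128.8 and 200.8 FPKM in control leaves. All NaCl libraries were below all controls, and control replicate 2 was the control nearest to NaCl. Means were 91.8 ± 9.36 FPKM in NaCl and 181 ± 45.9 FPKM in control (SD, n = 3 each), with a log2 fold change of -0.94 (SE 0.23, 95% interval -1.49 to -0.40) and an adjusted p of 0.0656 from limma. Without control replicate 2 the log2 fold change was -1.17 with an adjusted p of 0.0151. Its share of the ligases' FPKM was 33.0, 37.3 and 33.8% in NaCl, against 57.5, 47.4 and 55.4% in control, a separation whose exact two-sided permutation p of 0.1 is the smallest that 3 against 3 libraries can give.

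The other ligases are taken by the compartment in their terms. Cs_ont_5g006610, an endoplasmic reticulum gene annotated to cutin and wax synthesis, had 26.6, 9.50 and 21.0 FPKM in NaCl, against 35.6, 18.7 and 40.5 FPKM in control. Replicate 2 was the lowest library in both groups, and the log2 fold change was -0.74 (SE 0.43, adjusted p = 0.273 by limma). Cs_ont_8g022970, of the same compartment and also annotated to cutin, had a log2 fold change of -0.36. Both ligases placed in the peroxisome are annotated to the response to salt stress. How many other genes of the set carry that term, and their directions, was not counted. In both, all NaCl libraries lay above all controls, as they did in 23.6% of all tested genes. Cs_ont_3g016120 had 38.2, 36.7 and 46.5 FPKM in NaCl, against 29.3, 24.7 and 31.1 FPKM in control (log2 fold change 0.50, SE 0.16, adjusted p = 0.102 by limma). In Cs_ont_9g005200 the gap was smaller, with 74.5, 92.9 and 68.5 FPKM in NaCl, against 66.2, 67.0 and 63.8 FPKM in control (log2 fold change 0.25, adjusted p = 0.312 by limma). On recovered reads, the log2 fold changes of Cs_ont_3g016120 and Cs_ont_9g005200 were 0.34 and 0.081. Malonyl-CoA synthetase Cs_ont_1g016930, a mitochondrial gene, had a log2 fold change of 0.25, the chloroplast ligase Cs_ont_3g009360 had 0.41, and the chloroplast fatty acid to acyl carrier protein ligase Cs_ont_9g014950 had 0.18, none past the threshold.

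By component term, the 19 tested chloroplast genes had 14 positive and 5 negative log2 fold changes (median 0.38), and the 5 tested endoplasmic reticulum genes had 1 positive and 4 negative (median -0.50). Of all tested genes, 64.7% were positive, with a median of 0.18. The 3 mitochondrial and 2 peroxisomal genes were all positive, apart from Cs_ont_5g000300 under the scalings named above. Over the scalings tried and without control replicate 2, the endoplasmic reticulum genes stayed at 1 positive and 4 negative, and the chloroplast genes had 12 to 16 positive values. Leaving out other single libraries turned signs in the endoplasmic reticulum group. Cs_ont_6g010860, its only positive gene, came to -0.074 without control replicate 1, and Cs_ont_2g034070 reached 0.43. The difference between compartments was not tested. The photosynthesis genes, which are also chloroplast genes, had overlapping summed FPKM, as given above, with a higher mean in NaCl. Gene by gene, photosynthesis had 35 positive and 4 negative log2 fold changes (median 0.51) and antenna proteins 13 and 2 (0.75). Carbon fixation had 43 and 14 (0.31). The part of these genes in the difference was not tested.

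All 3 tested genes of the set with an SE above 0.5 on the log2 scale (Cs_ont_6g010860, Cs_ont_2g034070 and Cs_ont_3g013810) were in the unsaturated fatty acid pathway, against a median SE of 0.24 over the 40 tested genes. The pathway of unsaturated fatty acids had 10 genes here, 6 of them tested, with 3 positive and 3 negative log2 fold changes, and control replicate 2 was the highest control in all 6. The omega-6 fatty acid desaturase Cs_ont_6g010860 belongs to an enzyme class that turns oleate into linoleate, and its component term places it in the endoplasmic reticulum. It had 106.3, 107.4 and 81.8 FPKM in NaCl leaves, against 23.0, 268.1 and 39.2 FPKM in control leaves. NaCl libraries lay close together, and controls lay on both sides of them. Its log2 fold change of 0.63 (SE 0.83, adjusted p = 0.621 by limma) became 1.67 (SE 0.26, adjusted p = 0.0190) without control replicate 2 and -0.074 without control replicate 1. Cs_ont_2g034070, whose term is phosphatidylcholine 12-monooxygenase, an oleate hydroxylase activity, had 16.1, 0.176 and 3.01 FPKM in NaCl, against 5.45, 10.7 and 2.05 FPKM in control. Both groups spanned a wide range, and the interval of its log2 fold change (-2.81 to 1.80) covers both directions.

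The 8 genes placed in both pathways had no function term in use and gave values in both directions. Cs_ont_5g020110, a chloroplast gene, was the highest of them, with 72.4, 61.3 and 66.0 FPKM in NaCl, against 43.0, 58.4 and 38.8 FPKM in control. Its groups did not overlap (log2 fold change 0.52, SE 0.18, adjusted p = 0.122 by limma). Cs_ont_3g013810, also a chloroplast gene, had 9.20, 19.7 and 8.92 FPKM in NaCl, against 3.47, 14.1 and 3.27 FPKM in control. Replicate 2 was by far the highest library in each group, and the log2 fold change of 0.96 (SE 0.55, adjusted p = 0.271 by limma) became 1.55 (adjusted p = 0.0370) without control replicate 2. Cs_ont_3g023460 had the lowest log2 fold change of the whole set, with 1.82, 0.787 and 0.896 FPKM in NaCl, against 2.79, 6.76 and 4.64 FPKM in control. All NaCl libraries were lower (log2 fold change -1.37, SE 0.32, 95% interval -2.14 to -0.61), and the adjusted p was 0.0622 by limma and 0.0481 after quantile normalization.

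A further gene of both pathways, Cs_ont_3g007870, failed the filter because it was above 0.5 FPKM in only 2 libraries. It had 0.176, 0.343 and 0.0938 FPKM in NaCl, from 5, 10 and 3 reads, against 0.174, 17.8 and 4.56 FPKM in control, from 5, 434 and 107 reads. Control replicates 2 and 3 were high and the other 4 libraries near 0. With no filter on low values its log2 fold change was -2.05 (SE 0.92, adjusted p = 0.235 by limma). Cs_ont_6g026280 was listed at 0 in every library.

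**Figure D4:**
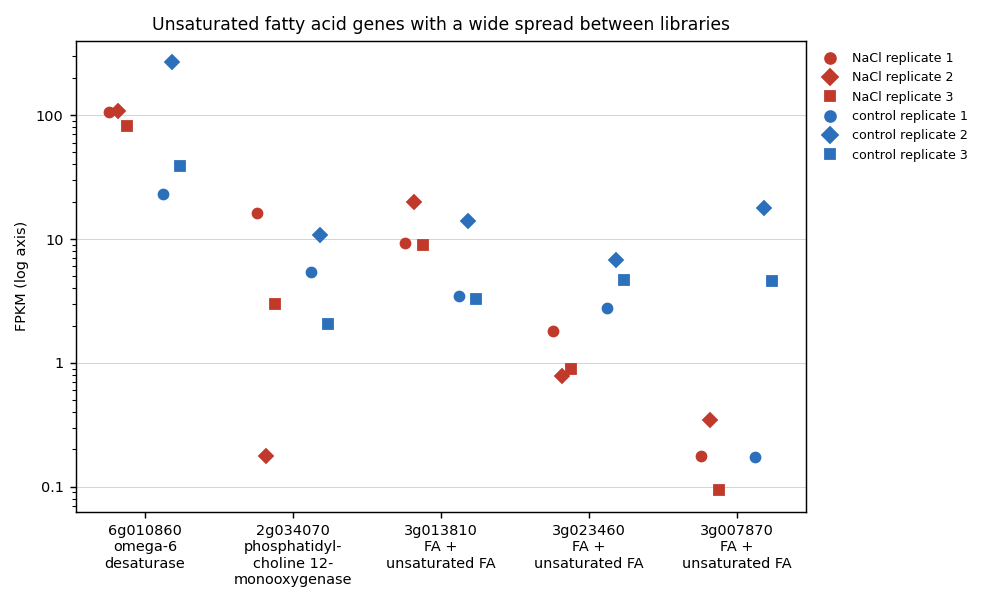
FPKM (log axis) of 5 genes of the unsaturated fatty acid pathway in each library, with NaCl in red left of control in blue and marker shape for the replicate. In 6g010860 the NaCl libraries sit at 81.8 to 107.4 FPKM between controls at 23.0 and 268.1 FPKM, and in 3g023460 all NaCl points lie below all control points.

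Leaving out control replicate 2 gave 5 calls among the 40 genes. Higher in NaCl were 3, Cs_ont_6g010860, Cs_ont_3g013810 and Cs_ont_2g033990, and lower were 2, Cs_ont_5g049450 (-1.17) and Cs_ont_5g049750 (log2 fold change -1.15, adjusted p = 0.0486 by limma). Over all tested genes the same fit called 5.3% as higher and 5.11% as lower, so 3 and 2 of 40 were near the background. No other left-out library gave a call among these genes. The fit assumes that the 2 remaining controls vary as the NaCl libraries do.

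**Figure D5:**
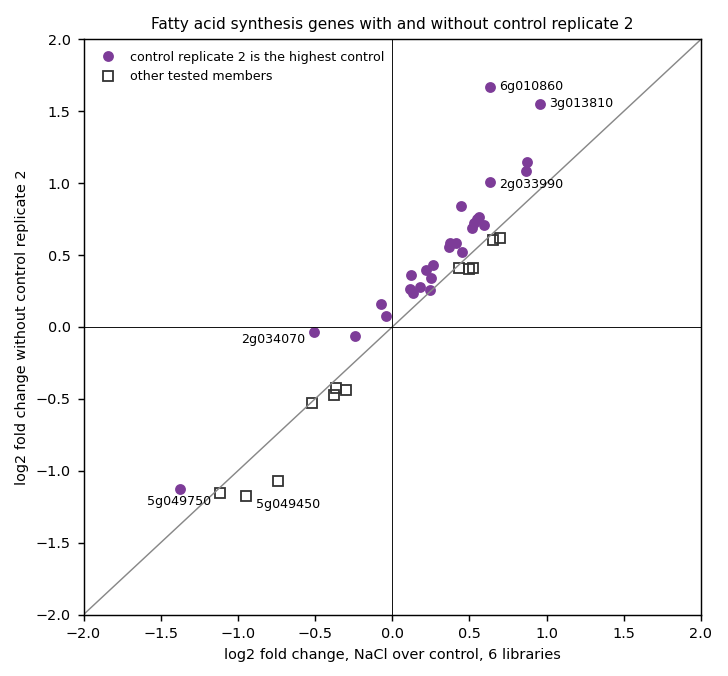
Log2 fold change of NaCl over control for the 40 tested genes, from all 6 libraries (horizontal) and without control replicate 2 (vertical), with filled points for the 28 genes in which that library was the highest control and a diagonal where both are equal. Filled points lie above the diagonal by construction, since leaving out the highest control lowers the control mean. The shift is largest for 6g010860 (0.63 and 1.67), while 5g049450, not a filled point, lies below the diagonal (-0.94 and -1.17).

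Summed over all 66 genes, FPKM was 1050, 993 and 903 in NaCl leaves, against 812, 1137 and 806 in control leaves. The sums overlapped only through control replicate 2, where the desaturase Cs_ont_6g010860 gave 268.1 FPKM. The overlap did not rest on that gene alone. Over the 64 genes of fatty acid biosynthesis, which leave it out, control replicate 2 held 858 FPKM and NaCl replicate 3 held 818 FPKM. The ligases averaged lower, at 264 ± 11.5 FPKM in NaCl and 336 ± 55.6 FPKM in control (SD, n = 3 each), but their sums overlapped, with 275 FPKM in NaCl replicate 2 and 272 FPKM in control replicate 2. Between these means, the difference in Cs_ont_5g049450 alone (91.8 FPKM in NaCl and 181 FPKM in control) was larger than that of the whole group.

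Related pathways, with the genes above left out of each, are given for context by the same fit, in which 0.978% of all genes were called higher and 1.75% lower. Fatty acid elongation (17 tested, median log2 fold change -0.04), cutin and wax synthesis (12 tested, 0.21), biotin metabolism (5 tested, 0.55), lipoic acid metabolism (4 tested, 0.55) and pyruvate metabolism (76 tested, 0.19) had 0 genes called. Fatty acid degradation had 3 of 31 genes called, all lower in NaCl, and alpha-linolenic acid metabolism had 1 higher and 6 lower of 40, with a median of -0.63. Glycerolipid metabolism had 1 higher and 1 lower of 54, glycerophospholipid metabolism 0 and 2 of 66, and sphingolipid metabolism 2 and 1 of 32. Among the 16 genes of the fatty acid synthesis pathways set aside for their other pathways, 12 were tested and 3 fell in NaCl. They are the same 3 genes counted under fatty acid degradation, and they are also among the 6 of alpha-linolenic acid metabolism. The most abundant of these, Cs_ont_5g042580, had 120, 129 and 91.9 FPKM in NaCl, against 488, 326 and 571 FPKM in control (log2 fold change -1.99, adjusted p = 0.0373 by limma).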

How the data were processed

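Leaf RNA of 3 NaCl and 3 control samples was sequenced. Per the study's methods, Trim Galore was used for trimming, HISAT2 for alignment and featureCounts for counting, while the submitters' notes name HISAT2 and HTSeq; the paper names different sweet orange genome builds in different places, so the build behind the table was not settled. The authors deposited the FPKM of each gene in each library, with a mean FPKM for each group. They also deposited a log2 fold change and a p-value per gene, neither of which was used. One protocol label names boron (0.01 mg/L, 25 days) rather than NaCl, in conflict with the treatment label.

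Members were chosen by pathway number from the deposited annotation, with earlier results of these data known, as were the groupings and tests. FPKM is not a count, so log2(FPKM + 1) was tested with limma 3.58.1 (mean-variance trend, no covariate) in R 4.3.3, for genes of at least 0.5 FPKM in at least 3 libraries (17285 of 29875), with Benjamini-Hochberg adjustment over all of them. Intervals are limma's 95% intervals. The call rule is that of the study's methods. Named by rule were, in each role group, the genes with the highest mean, the lowest adjusted p and the largest absolute log2 fold change, and genes at 0 where a function term is given; others were named after their values were seen. Tables were made with Python 3.11.15 and pandas 2.3.3. The fit was tested on simulated data. Permutation tests are exact and two-sided, and with 3 libraries against 3 cannot go below 0.1.

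Whole reads were recovered from FPKM for 100% of 23073 genes above 0, within 0.02 reads, as the smallest whole numbers that fit; counting error is the only error that such depths describe. Alternatives were pseudocounts of 0.1 and 0.01, no filter and a filter of 1 FPKM, quantile and upper-quartile scaling, the replicate number as a block, voom on recovered reads, other call rules, and each library left out. No coordinates or sequences are given, because no identifier matched the reference gene table used here.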

Additional observations from a re-analysis of the deposited data

How the results depend on the processing

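With all 6 libraries 0 fatty acid synthesis genes were called in either direction. This held under every alternative except 3: without control replicate 2 there were 3 higher and 2 lower, after quantile normalization 1 lower (Cs_ont_3g023460, log2 fold change -1.44), and at an unadjusted p with the fold change 2 lower. Over the libraries left out in turn, the counts ran from 0 to 3 higher and from 0 to 2 lower. The median log2 fold change of the tested genes was 0.32, and over the alternatives it ran from 0.15 on recovered reads to 0.41 without control replicate 2. The median of all genes was 0.18, 0.08 under quantile normalization or upper-quartile scaling, and 0.05 on recovered reads. In 37 of 40 genes the sign was kept under these 3 scalings, and it turned in 3. Cs_ont_7g022760 (0.14 in all libraries) had -0.028 on recovered reads and ran from -0.087 without NaCl replicate 1 to 0.25 without NaCl replicate 3. Cs_ont_6g010860 (0.63) ran from -0.074 without control replicate 1 to 1.67 without control replicate 2. Why these values moved was not tested.

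Over all tested genes, 169 were called higher and 303 lower. The numbers were 110 and 198 with a pseudocount of 0.01, 12 and 28 with no filter, 35 and 114 on recovered reads with voom, 85 and 275 under upper-quartile scaling, and 612 and 881 at an unadjusted p with the fold change. Leaving out each library gave 0 to 916 higher and 0 to 884 lower, the highest counts without control replicate 2 and the lowest without control replicate 3. With the replicate number as a block, 1 was higher and 6 lower. Same-numbered samples did not deviate together (correlations -0.03, 0.03 and -0.07), so the numbers were not taken as pairs, and no fatty acid synthesis gene was called under the block.

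At totals of 14258460 to 19434813 recovered reads, 26 of the 66 fatty acid synthesis genes did not pass the filter on low values.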
